A study of Rattus norvegicus with 6 samples.

Results

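Complement, coagulation and fibrinolysis genes were examined in primary neonatal cardiomyocytes that had been treated with human cardiotrophin 1 (hCT1), a cytokine of the interleukin-6 family that signals through the gp130 receptor chain. The members were listed by function, and each was represented by the brightest of the probe sets that the platform annotation pairs with its symbol alone, which left 45 of 50 listed genes among 14506 genes in all. C2 and Cfb share a probe set with each other and C5, Cd59 and F9 had no such probe set, so these 5 were not measured by the rule. Ventricular cells of 2-day-old Sprague-Dawley rats were plated after fibroblasts had been reduced by pre-plating, kept in serum-free medium, and given recombinant hCT1 at 0.5 nM (3 samples) or control serum-free medium alone (3 samples) for 24 h. The sample records name a hypertrophic agonist in the growth medium of all 6 samples, controls included. If this is meant literally, every difference below is against cells that also received it. Total RNA of each sample was hybridised to 1 Affymetrix whole-transcript rat array, and the deposited values are log2 values made with RMA. The records do not say whether the triplicates came from separate cultures. The p-values therefore measure only how far these samples spread, and that spread may be technical.

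Complement is a cascade of plasma proteases and cofactors that tags surfaces with fragments of C3 and ends in a pore, the membrane attack complex. Clotting is a parallel protease cascade that ends in thrombin and fibrin, and plasmin, made from plasminogen, dissolves fibrin again. Most soluble members of these systems are made by the liver, while membrane regulators and receptors are made by many cells, and heart cells, fibroblasts, endothelium and macrophages are each known to make some components locally. Cytokines of the interleukin-6 family are known to induce several of the genes in hepatocytes as part of the acute phase response.

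Arrays of a group correlated with each other at a Pearson's r of 0.9969 to 0.9978 over 29215 probe sets, and arrays of different groups at 0.9942 to 0.996. All 10 cardiomyocyte markers lay above the 77th percentile of control signal, where a percentile is the rank of a probe set among the 15310 probe sets with exactly 1 symbol. In the comparison given next, 4 of these cardiomyocyte markers fell and 6 failed the test, where 9.84% of all probe sets fell. Of 8 smooth muscle and pericyte markers 2 fell (Myh11 and Tagln), and of 11 fibroblast markers 0. All 11 fibroblast markers and all 8 smooth muscle and pericyte markers lay above the 40th percentile. Of the markers measured, 8 of 10 for endothelium, 5 of 12 for macrophages and 0 of 9 for hepatocytes did so, and 0 of 3 for platelets. The arrays carry no detection calls, so a gene below the 40th percentile (a log2 value of 5.72 in controls) may lie at background, and RMA understates its fold change. By this measure 30 of the 45 members were dim in control samples.

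hCT1-treated and control samples were compared with limma over the 15310 probe sets, with Benjamini-Hochberg adjustment and a threshold of 0.05. Of the 45 measured members, 8 were higher with hCT1 (17.8%, against 4.98% of all probe sets tested), 1 was lower (2.22%, against 9.84%) and 36 did not pass. The list was chosen with earlier results of these data known, so these shares and those below are descriptions and no test of the list. The 8 that rose were Serping1, Thbd, C3, C1s, C7, Pros1, Cd46 and C1r, and the 1 that fell was C3ar1. By a one-way test without moderation, adjusted in the same way, C1r, C7, Cd46 and Pros1 did not pass. All 9 had groups that did not overlap. With 3 samples a group, the smallest p of a 2-sided exact permutation test is 0.1, so the calls rest on the spread that limma pools across probe sets. A rise of at least 1.5-fold was found in 4 members that passed (8.89%, against 0.771% of all probe sets), which were Serping1, Thbd, C3 and C1s. In total 13 members had every hCT1-treated sample above every control sample (28.9%, against 13.9% of all probe sets), 5 had every hCT1-treated sample below (11.1%, against 20.5%) and 27 overlapped, where 34.3% of all probe sets were without overlap in either direction. The median log2 fold change was 0.07 over the members and -0.0028 over all probe sets. With probe sets below the 40th percentile of mean signal left out, the median of the members was -0.02, so it gives no firm direction for the list. No median of all probe sets is given here for that filter, so this shift is not set against theirs.

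**Figure D1:**
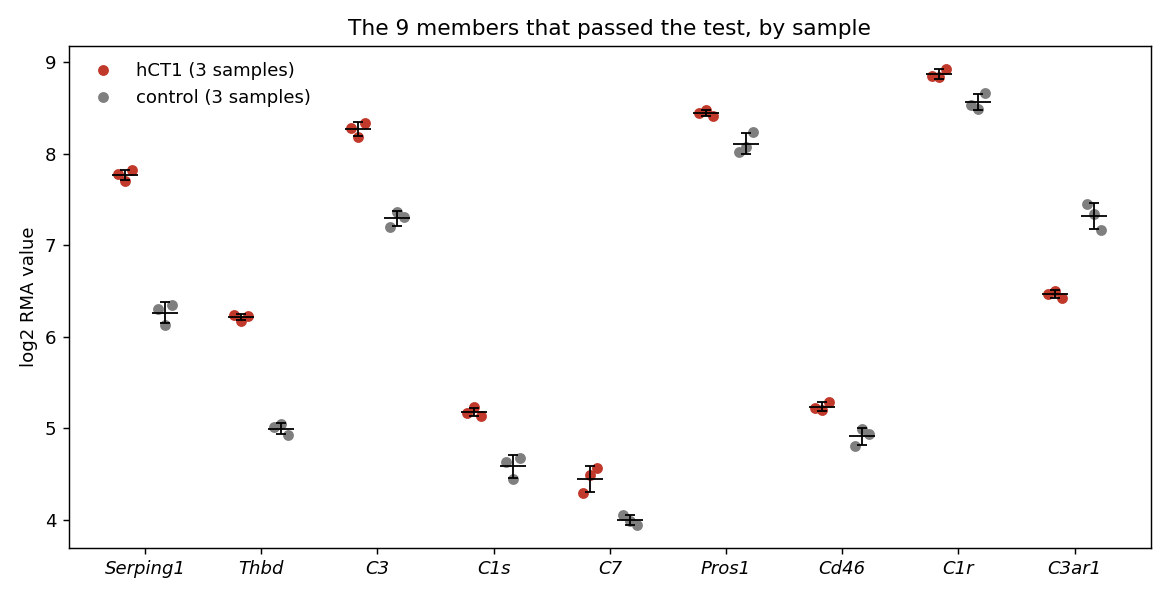
The log2 RMA value (vertical axis) of the 9 members that passed the test is plotted for 3 hCT1-treated samples (red, left) and 3 control samples (grey, right). Points are samples, and lines with bars give the mean and SD of a group. Serping1 means lie at 7.77 with hCT1 and 6.26 in controls, and C3ar1 is the 1 gene whose hCT1-treated samples lie below the controls.

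Serping1, which encodes the C1 inhibitor, a serpin that inactivates C1r and C1s and also the proteases of the contact system, had the largest change of the 45 members. Its log2 value (probe set 10846854) was 7.78, 7.71 and 7.82 in hCT1-treated samples and 6.30, 6.13 and 6.35 in control samples. The lowest treated sample thus lay well above the highest control. The rise was 2.84-fold (log2 fold change 1.51 with SE 0.07, limma adjusted p = 3.65e-06), and it ranked 15 among the rises of the 15310 probe sets. Means were 7.77 ± 0.06 with hCT1 and 6.26 ± 0.11 in controls (SD, n = 3 each). Over the 17 alternative settings the log2 fold change of Serping1 ranged over 1.44 to 1.56.

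C1r and C1s, the paired proteases of the first complement component that Serping1 inhibits, rose as well. C1s (probe set 10865442) measured 5.16, 5.23 and 5.14 in hCT1-treated samples, against 4.63, 4.44 and 4.68 in control samples. This is a 1.51-fold rise (log2 fold change 0.59 with SE 0.07, limma adjusted p = 0.000882) in a gene that lay at percentile 28.1 of control signal, where folds are understated. C1r (probe set 10858655) was 8.85, 8.83 and 8.93 in hCT1-treated and 8.54, 8.49 and 8.66 in control samples, a smaller step of 1.24-fold (log2 fold change 0.31 with SE 0.06, limma adjusted p = 0.0131). Without control replicate 2, C1r no longer passed (log2 fold change 0.27, adjusted p = 0.0554). The genes of C1q, the recognition part that binds antibody and is known as a product of macrophages, gave no call. The log2 fold change was 0.05 for C1qa, -0.01 for C1qb and 0.14 for C1qc, and all 3 lay below the 40th percentile in controls. The treated samples of C1qc were all above its controls (adjusted p = 0.159), and those of C1qa and C1qb overlapped.

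C3, the component on which all activation routes converge, rose 1.97-fold. Its values were 8.29, 8.19 and 8.34 in hCT1-treated samples and 7.20, 7.37 and 7.31 in control samples (probe set 10931717, log2 fold change 0.98 with SE 0.07, limma adjusted p = 3.26e-05). Means of 8.27 ± 0.08 with hCT1 and 7.29 ± 0.08 in controls (SD, n = 3 each) lay far further apart than the samples of either group. The other measured genes of the alternative pathway, Cfd and Cfp, did not pass. Cfd, which encodes factor D, the protease that cleaves factor B, was 5.29, 4.93 and 5.34 in hCT1-treated and 5.14, 5.09 and 5.12 in control samples, with hCT1 replicate 2 below all controls. Cfp, which encodes properdin, the stabiliser of the alternative convertase, was 6.30, 6.30 and 6.38 in hCT1-treated samples, against 6.92, 6.63 and 6.28 in controls. Its treated samples lay close together and its controls were widely spread, with control replicate 3 the lowest (log2 fold change -0.28, adjusted p = 0.194). Without that sample Cfp passed as lower (log2 fold change -0.45, adjusted p = 0.0167). The probe set shared by Cfb and C2 was not tested among the genes of 1 symbol. It measured 4.66, 4.57 and 4.57 in hCT1-treated and 4.64, 4.54 and 4.53 in control samples, which overlap (log2 fold change 0.03, adjusted p = 0.796 in a limma fit over all 29215 probe sets).

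Of the 6 measured genes of the terminal pathway, which builds the membrane attack complex, 1 rose and 5 did not pass. Among all probe sets 4.98% rose and 14.8% passed in either direction, so the count does not set this group apart. In controls 5 of the 6 genes were dim. C7, the component that lets the growing complex insert into membranes, was 4.29, 4.49 and 4.57 in hCT1-treated samples and 4.05, 3.99 and 3.95 in control samples (probe set 10821666). The samples did not overlap and the rise was 1.37-fold (log2 fold change 0.45 with SE 0.08, limma adjusted p = 0.00517), at percentile 20.4 of control signal. The log2 fold changes of C6, C8a, C8b and C9 lay between 0.07 (C9) and 0.13 (C6), and all 4 genes were dim in controls. C8g, which encodes the gamma chain of C8, had the largest negative difference among members that did not pass. It was 5.90, 5.98 and 5.997 in hCT1-treated samples, against 6.57, 6.47 and 5.998 in control samples. The groups count as not overlapping, but control replicate 3 lay all but level with the treated samples and the other controls stood above them. The log2 fold change was -0.39 (SE 0.13, limma adjusted p = 0.0749), or -0.56 without control replicate 3 (adjusted p = 0.00218).

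Cells protect themselves from complement with membrane proteins that dismantle the convertases or block the pore. Cd46, a cofactor for the cleavage of C3 fragments that is known in rodents mainly from the testis, was 5.22, 5.20 and 5.29 in hCT1-treated and 4.80, 4.99 and 4.94 in control samples (probe set 10770831). It rose 1.25-fold without overlap (log2 fold change 0.32 with SE 0.06, limma adjusted p = 0.0113). Cd46 was dim in controls, at percentile 32.3. Cr1l, the rodent regulator also called Crry, which is not a member, measured 8.85, 8.77 and 8.80 in hCT1-treated samples, against 8.45, 8.42 and 8.46 in controls, a 1.29-fold rise (log2 fold change 0.36, adjusted p = 0.00248). Cd59b, the symbol under which the annotation and RefSeq hold the listed Cd59, encodes an inhibitor of the membrane attack complex. Its values were 11.39, 11.47 and 11.41 in hCT1-treated and 11.05, 11.03 and 11.06 in control samples, a 1.3-fold rise (log2 fold change 0.38, adjusted p = 0.00213). Cd55, the decay-accelerating factor, overlapped between groups (7.33, 7.60 and 7.55 in hCT1-treated samples and 7.45, 7.57 and 7.52 in control samples, log2 fold change -0.02). Cfi, the protease that uses Cd46 as a cofactor, lay at percentile 6.46 in controls and had a log2 fold change of -0.01.

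Of the receptors, C3ar1 fell and C5ar1 did not pass. C3ar1, the receptor of the C3 fragment C3a and known in other tissues as a gene of macrophages, was 6.47, 6.50 and 6.43 in hCT1-treated samples, against 7.45, 7.34 and 7.17 in control samples (probe set 10865369). Every treated sample lay below every control, a decrease of 1.81-fold (log2 fold change -0.85 with SE 0.08, limma adjusted p = 0.000154), and it ranked 28 among the falls of all probe sets. In these bulk samples fewer cells of a type and less RNA per cell cannot be told apart. Of 12 macrophage markers, Lyz2 was lower (log2 fold change -0.52), Laptm5 was higher (0.28) and 10 failed the test. Among all probe sets 14.8% passed in either direction, so the count does not set this list apart. The median over the 12 was -0.17. The summed signal of the list was 9.34 to 9.55 in hCT1-treated samples and 9.6 to 9.74 in control samples on the log2 scale, ranges that do not overlap. The sums of the cardiomyocyte, fibroblast and smooth muscle lists were also lower in all hCT1-treated samples (14.37 to 14.45, 13.25 to 13.29 and 13.35 to 13.37) than in control samples (14.51 to 14.52, 13.33 to 13.40 and 13.42 to 13.45), so this was not particular to the macrophage list. The 12 macrophage markers lay between percentile 16.4 (Ptprc) and percentile 67.1 (Lyz2) of control signal, and 7 of them were below the 40th. Whether macrophage content had a part in the fall of C3ar1 was not tested. C5ar1, the main receptor of C5a, was 4.37, 4.27 and 4.45 in hCT1-treated and 4.37, 4.28 and 4.35 in control samples, which overlap. C5ar2, a further C5a receptor and not a member, rose 1.37-fold (log2 fold change 0.46, adjusted p = 0.00219), at 6.11, 5.92 and 5.99 in hCT1-treated samples, against 5.55, 5.50 and 5.59 in controls. C5ar2 was dim in controls, at percentile 38.65.

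**Figure D2:**
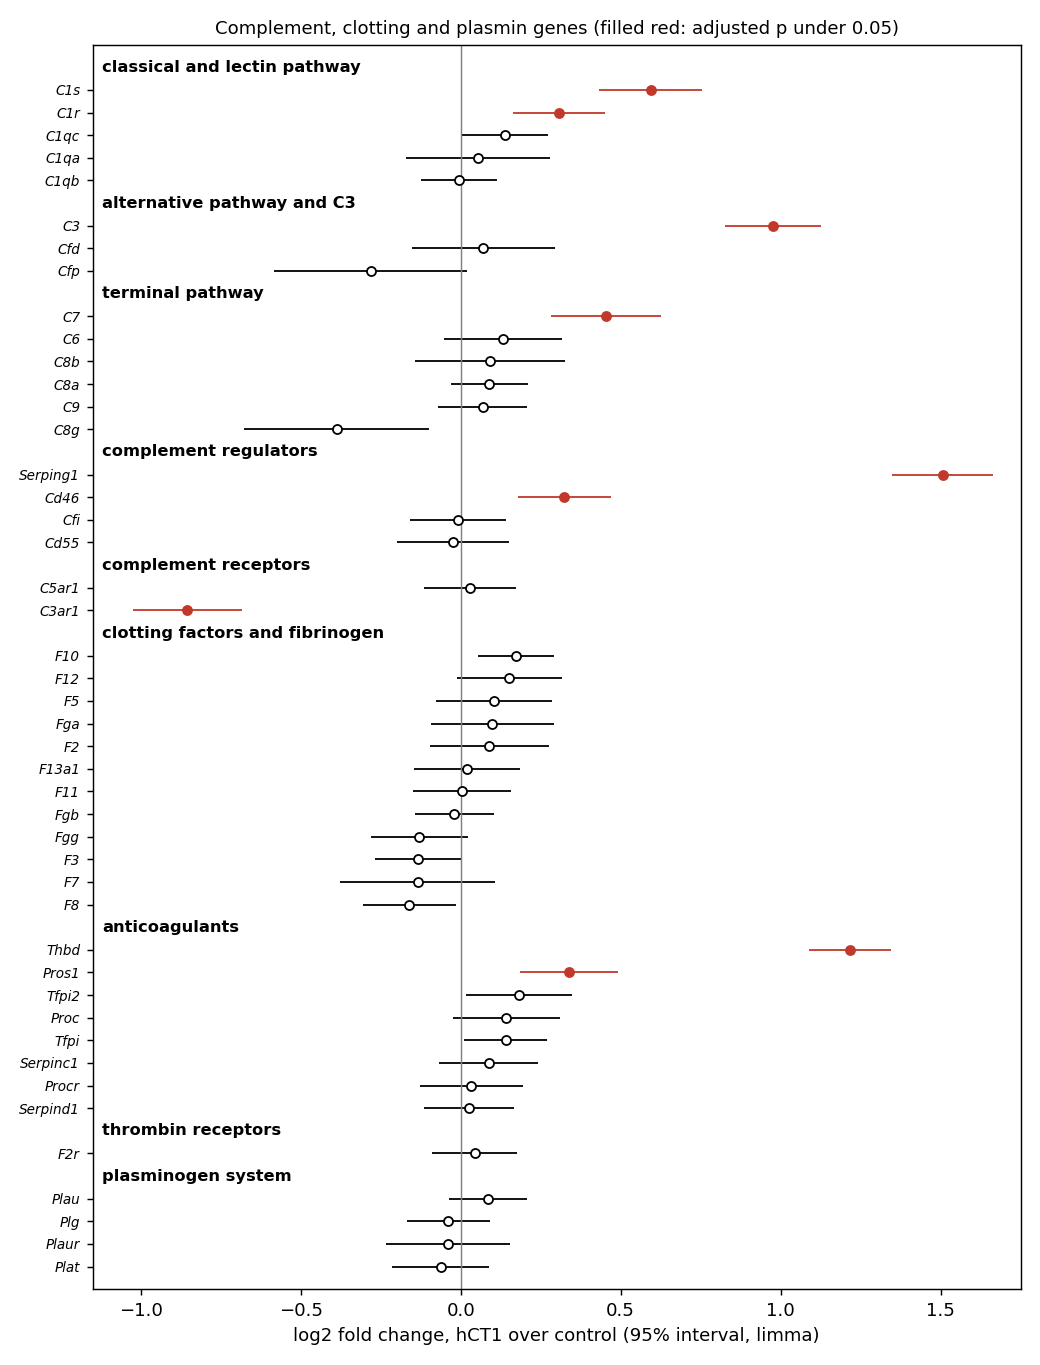
The log2 fold change of hCT1 over control (horizontal axis) is shown with its 95% interval from limma for all 45 measured members, grouped by role. Red fill marks an adjusted p under 0.05, and the rest are open. Serping1 (1.51), Thbd (1.22) and C3 (0.98) lie farthest to the right and C3ar1 (-0.85) farthest to the left.

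Thrombin is restrained by a set of anticoagulants, of which 2 of 8 measured rose, where 4.98% of all probe sets did. The difference was positive in all 8, but 5 of them were dim in controls, and 66.1% of dim probe sets and 49.3% of all probe sets had a positive difference. Thbd encodes thrombomodulin, the membrane protein that turns thrombin into an activator of protein C. It measured 6.24, 6.17 and 6.23 in hCT1-treated samples and 5.01, 5.05 and 4.93 in control samples (probe set 10850525). Means were 6.21 ± 0.03 with hCT1 and 4.997 ± 0.06 in controls (SD, n = 3 each). The groups lay far apart, with a 2.32-fold rise (log2 fold change 1.22 with SE 0.06, limma adjusted p = 3.95e-06) that ranked 32 among the rises of all probe sets. Thbd was dim in controls, at percentile 33.2, and reached percentile 45.0 with hCT1. Thrombomodulin is best known from endothelium. Of 10 endothelial markers, 1 was lower (Emcn) and 9 did not pass, where 9.84% of all probe sets were lower. Their summed signal was 10.31 to 10.36 in hCT1-treated and 10.28 to 10.45 in control samples, ranges that overlap.

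Pros1 encodes protein S, the cofactor of activated protein C, and was 8.45, 8.48 and 8.42 in hCT1-treated samples, against 8.02, 8.08 and 8.24 in control samples (probe set 10930660). It rose 1.26-fold (log2 fold change 0.34 with SE 0.07, limma adjusted p = 0.0115), with control replicate 3 nearest to the treated samples. Proc, which encodes protein C itself, was 5.55, 5.32 and 5.38 in hCT1-treated and 5.28, 5.20 and 5.35 in control samples, and Procr, its endothelial receptor, was 6.73, 6.56 and 6.67 in hCT1-treated and 6.52, 6.72 and 6.62 in control samples. Both overlapped between groups. Tfpi, the inhibitor of tissue factor, was 9.36, 9.45 and 9.33 in hCT1-treated samples, against 9.24, 9.28 and 9.20 in controls. Its treated samples were all above the controls, but the log2 fold change of 0.14 (95% interval 0.01 to 0.27, adjusted p = 0.14) did not pass. Tfpi2, a related Kunitz inhibitor, had the largest positive difference among members that did not pass, with 4.68, 4.79 and 4.83 in hCT1-treated and 4.48, 4.71 and 4.56 in control samples (log2 fold change 0.18, adjusted p = 0.13). Serpinc1, which encodes antithrombin, and Serpind1, which encodes heparin cofactor II, had log2 fold changes of 0.09 and 0.03.

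None of the 12 measured genes of clotting factors and fibrinogen passed the test, at an adjusted p of at least 0.0576 in limma. Among all probe sets 14.8% passed in either direction and 10 of the 12 genes were dim in controls, so the count does not set this group apart. At an unadjusted p under 0.05 in limma, F10 was higher and F8 lower, but no count over all probe sets is given here for that cut. F3 encodes tissue factor, the membrane protein that starts clotting, and lay at percentile 88.7 in controls. It was 9.47, 9.36 and 9.41 in hCT1-treated samples, against 9.47, 9.61 and 9.56 in control samples, with hCT1 replicate 1 below control replicate 1 only past the decimals given and the other treated samples below all controls (log2 fold change -0.13, adjusted p = 0.18). F8, the cofactor of factor IX, was 6.45, 6.35 and 6.55 in hCT1-treated and 6.62, 6.62 and 6.59 in control samples, with all treated samples lower (log2 fold change -0.16, adjusted p = 0.129). F10, the protease that makes thrombin, was 4.70, 4.69 and 4.74 in hCT1-treated samples, against 4.54, 4.51 and 4.56 in controls, where it was dim at percentile 27.5. Its groups did not overlap (log2 fold change 0.17, adjusted p = 0.0576), and it passed with array weights (adjusted p = 0.0305), after centring on the median (0.0485) and by a one-way test without moderation (0.0333).

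The remaining clotting genes, like F10, were dim in controls. Prothrombin (F2), the cofactor F5, the proteases F7, F11 and F12 and the fibrin crosslinker F13a1 had log2 fold changes between -0.13 (F7) and 0.15 (F12). The fibrinogen chains, which the liver makes in the acute phase response, measured 3.25, 3.49 and 3.36 for Fga, 3.43, 3.52 and 3.51 for Fgb and 3.31, 3.20 and 3.25 for Fgg in hCT1-treated samples. In control samples they were 3.42, 3.20 and 3.18 for Fga, 3.52, 3.50 and 3.51 for Fgb and 3.50, 3.31 and 3.33 for Fgg. Fga and Fgb overlapped, and Fgg was lower in all treated samples without passing (log2 fold change -0.13, adjusted p = 0.232). For Fgg, hCT1 replicate 1 lay below control replicate 2 only past the decimals given. All 12 intervals of this group lay between -0.38 and 0.32 on the log2 scale, although at such signals a change may be hidden. F2r, a thrombin receptor of many cells, was 9.34, 9.39 and 9.35 in hCT1-treated and 9.25, 9.40 and 9.31 in control samples (log2 fold change 0.04).

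In the plasminogen system 0 of 4 members passed, which at 14.8% of all probe sets passing in either direction is no result about these genes. Plat, which encodes tissue plasminogen activator, was 8.52, 8.47 and 8.37 in hCT1-treated samples, against 8.42, 8.53 and 8.60 in control samples. Plaur, the receptor of urokinase, was 8.62, 8.50 and 8.57 in hCT1-treated and 8.80, 8.51 and 8.50 in control samples, with control replicate 1 the highest. Both genes overlapped between groups, with log2 fold changes of -0.06 and -0.04. Plau, which encodes urokinase, and Plg, which encodes plasminogen, were dim in controls and had log2 fold changes of 0.08 and -0.04. At an unadjusted p under 0.05, 0 of these genes passed in limma, and 1, Plau, passed by the one-way test without adjustment. By that one-way test 3950 of all 15310 probe sets passed in either direction, so 1 of 4 does not set these genes apart. No such count is given here for limma without adjustment. Of the 36 members that did not pass, 35 had a 95% interval within 1.5-fold in either direction, and the exception was C8g. In controls 26 of the 36 were dim, where folds are understated, so their intervals may hide a larger change.

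**Figure D3:**
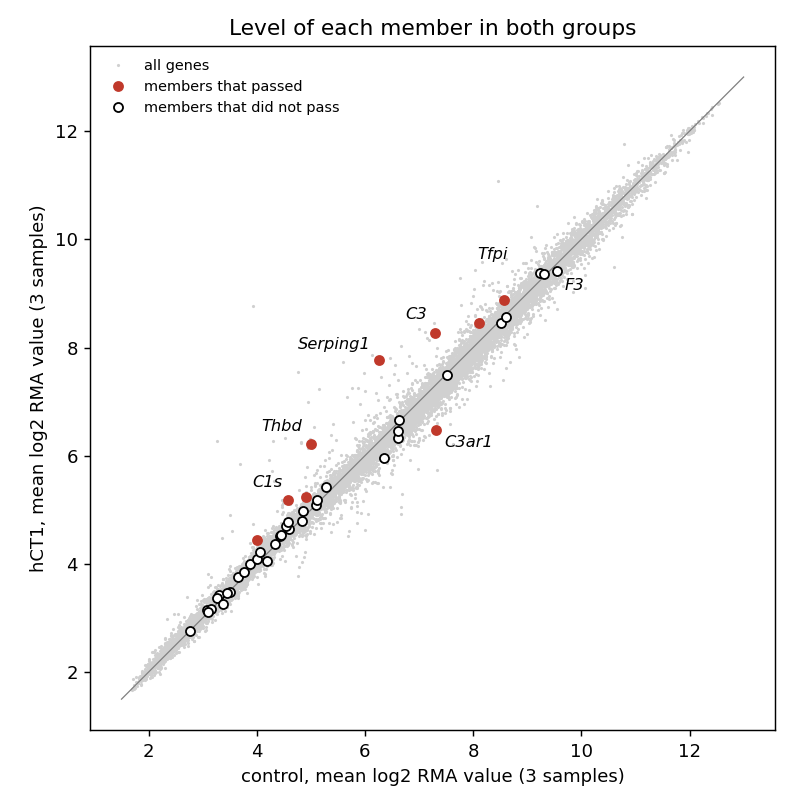
The mean log2 RMA value of hCT1-treated samples (vertical axis, 3 samples) is plotted against that of control samples (horizontal axis, 3 samples). Grey dots are 14506 genes, red points the 9 members that passed, open points the 36 that did not, and the line marks equal levels. Serping1, Thbd, C3 and C1s lie above the line and C3ar1 below it, while many open points lie at the dim end.

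The other genes of the same systems, listed by function with earlier results of these data known, were tested in the same fit. Of 52 measured, 5 rose (9.62%, against 4.98% of all probe sets) and 3 fell (5.77%, against 9.84%), while 44 failed the test, and the median log2 fold change was 0.07. Besides Cr1l, Cd59b and C5ar2, the genes of the kininogens, Kng1 and Kng2, which supply bradykinin and serve the contact system, were higher. Kng2 was 3.73, 4.03 and 3.66 in hCT1-treated samples, against 3.36, 2.93 and 2.98 in controls (log2 fold change 0.71, adjusted p = 0.00666), and Kng1 was 3.13, 3.42 and 3.60 in hCT1-treated and 2.85, 2.68 and 2.62 in control samples (0.67, adjusted p = 0.00507). These paralogs may share probe signal, both were among the dimmest probe sets of controls (percentiles 9.82 and 5.83), and another probe set of Kng1 did not pass (0.23, adjusted p = 0.405). Those that fell were Cd93, a membrane lectin of endothelium first described as a C1q receptor (log2 fold change -0.42), Plgrkt, a plasminogen receptor (-0.40), and Serpine2, a serpin that inhibits thrombin and plasminogen activators (-0.40). Cd93 was 6.78, 6.80 and 6.80 in hCT1-treated samples, against 7.21, 7.23 and 7.20 in controls. Serpine2 no longer passed when any hCT1 replicate was left out (adjusted p = 0.0836 without replicate 1, 0.0725 without replicate 2 and 0.0517 without replicate 3). A2m, a plasma inhibitor that is a main acute phase protein of the rat liver, did not pass (log2 fold change 0.13). It was 4.76, 4.67 and 4.86 in hCT1-treated and 4.61, 4.67 and 4.64 in control samples. Its hCT1 replicate 2 lay above control replicate 2 only past the decimals given. A2m was dim in controls, at percentile 28.8, where a change may be hidden. The other 10 measured genes of the classical and lectin pathways, which encode lectins and their proteases among others, had log2 fold changes between -0.05 (Masp1) and 0.23 (Colec10, adjusted p = 0.0851). Of these, 0 passed, where 14.8% of all probe sets passed in either direction. In controls 8 of the 10 were dim, so the count does not set this group apart.

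Several members lie beside each other in the rat genome, where the order was read from RefSeq (GRCr8, all 45 measured members matched by gene identifier). C1r and C1s are adjacent, with C1rl on the other side of C1r. C1r and C1s rose and C1rl did not pass (log2 fold change 0.06). Cd46, Cr1l and Cr2 follow each other without another protein-coding gene between them, and Cd46 and Cr1l rose (0.32 and 0.36) while Cr2, a receptor of lymphocytes, did not pass (0.13, at percentile 8.88 in controls). Thbd and Cd93 are adjacent, and Thbd rose where Cd93 fell. C5ar2 and C5ar1 are adjacent, and C5ar2 rose while C5ar1 had a log2 fold change of 0.03. The differences between neighbours in these groups were not tested. Fgg, Fga and Fgb form a row, as do C1qb, C1qc and C1qa, and neither row held a gene that passed. All genes of both rows were dim in controls, and 14.8% of all probe sets passed in either direction.

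**Figure D4:**
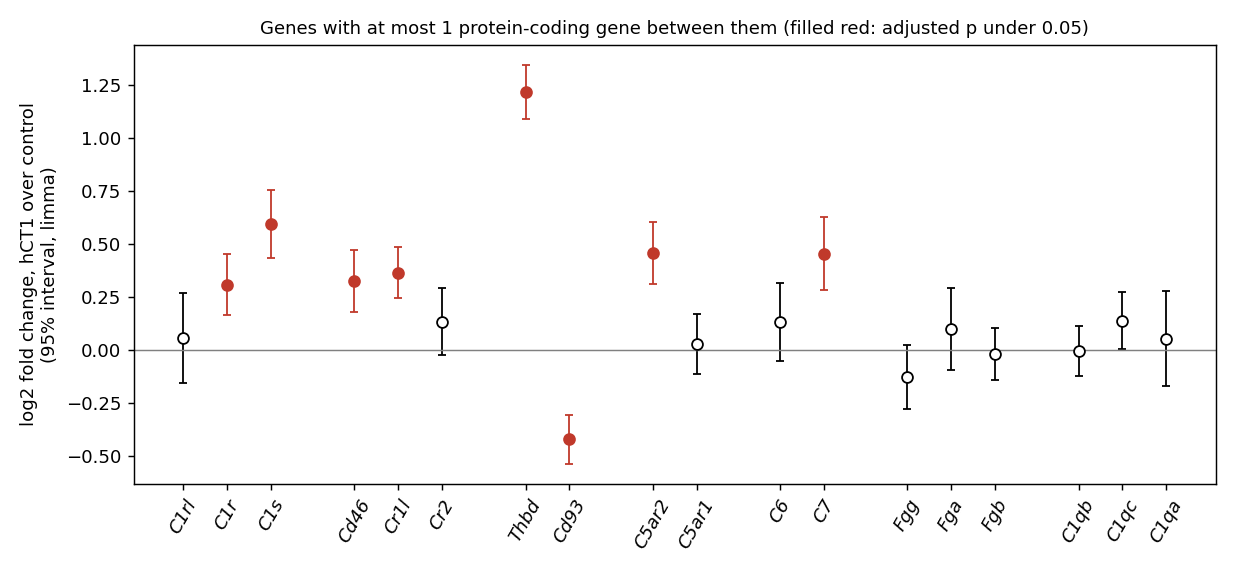
The log2 fold change of hCT1 over control (vertical axis, points with 95% intervals from limma) is shown for genes that lie together in the RefSeq order, with a gap between groups. Red fill marks genes that passed. Thbd (1.22) and its neighbour Cd93 (-0.42) lie on opposite sides of 0, and C1r with C1s and Cd46 with Cr1l lie on the same side.

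The 250 bases before the gene start were available in RefSeq for 33 of the 45 members, among them C1r, C3, Cd46 and Pros1 of the 8 that rose. They are shown for these 4, which were called in the same direction, and for C3ar1, which fell, and Fgg, which did not pass. Serping1, Thbd, C1s and C7 also rose but had no such sequence. Fgg was dim in controls, at percentile 12.98, where a change may be hidden. Capitals mark 2 motifs linked to cytokines of this family: the STAT site TTCNNNGAA, a palindrome, and CTGGGAA, the type II interleukin-6 element of acute phase genes, read on either strand.
C1r: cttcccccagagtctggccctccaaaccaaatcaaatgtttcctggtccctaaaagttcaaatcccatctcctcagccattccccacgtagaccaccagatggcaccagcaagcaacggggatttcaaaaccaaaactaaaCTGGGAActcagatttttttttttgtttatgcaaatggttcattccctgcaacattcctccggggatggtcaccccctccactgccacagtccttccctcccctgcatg
C3: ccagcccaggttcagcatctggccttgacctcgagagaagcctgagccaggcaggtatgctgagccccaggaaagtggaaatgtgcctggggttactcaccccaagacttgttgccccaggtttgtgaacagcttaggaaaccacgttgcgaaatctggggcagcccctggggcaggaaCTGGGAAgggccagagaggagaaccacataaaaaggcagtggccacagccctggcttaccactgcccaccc
Pros1: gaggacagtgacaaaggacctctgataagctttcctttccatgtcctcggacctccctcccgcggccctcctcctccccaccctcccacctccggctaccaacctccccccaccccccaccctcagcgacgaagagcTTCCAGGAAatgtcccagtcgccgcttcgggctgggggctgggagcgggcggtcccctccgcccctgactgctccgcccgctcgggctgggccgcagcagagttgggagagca
Cd46: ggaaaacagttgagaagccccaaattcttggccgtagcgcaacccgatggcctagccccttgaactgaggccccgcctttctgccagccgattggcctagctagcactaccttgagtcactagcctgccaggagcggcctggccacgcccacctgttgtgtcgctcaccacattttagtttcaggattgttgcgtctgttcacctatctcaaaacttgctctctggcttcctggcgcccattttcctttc
C3ar1: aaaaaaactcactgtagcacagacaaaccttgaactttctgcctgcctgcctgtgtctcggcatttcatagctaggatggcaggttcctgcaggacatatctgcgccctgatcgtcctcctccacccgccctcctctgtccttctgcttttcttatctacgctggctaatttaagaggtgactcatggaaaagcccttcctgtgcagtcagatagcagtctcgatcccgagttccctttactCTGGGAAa
Fgg: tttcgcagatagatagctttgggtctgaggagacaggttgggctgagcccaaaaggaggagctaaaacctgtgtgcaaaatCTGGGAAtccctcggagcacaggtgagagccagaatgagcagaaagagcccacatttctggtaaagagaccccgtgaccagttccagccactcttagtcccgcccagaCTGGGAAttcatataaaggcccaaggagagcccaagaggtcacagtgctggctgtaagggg
C1r (GRCr8, chr4:159098763-159099012, plus strand), C3 (chr9:2201340-2201589, minus strand) and C3ar1 (chr4:157756531-157756780, minus strand) each hold 1 match to CTGGGAA, Fgg (chr2:170652833-170653082, plus strand) holds 2, Pros1 (chr11:13677049-13677298, plus strand) holds 1 match to TTCNNNGAA, and Cd46 (chr13:109134770-109135019, minus strand) holds neither motif. Counted back from the start, where -1 is the last base before it, CTGGGAA spans -109 to -103 in C1r, -71 to -65 in C3, and -8 to -2 in C3ar1. Over all 27457 promoters of this length, 9.33% hold CTGGGAA and 7.52% hold TTCNNNGAA. Of the 4 members that rose and have a promoter here, 2 hold CTGGGAA and 1 holds TTCNNNGAA, and of the other 29 members with one, 6 hold CTGGGAA and 4 hold TTCNNNGAA. The C/EBP motif TTGCNNAA, read on either strand, was found in C1r (-83 to -76) and C3 (-104 to -97), in 8 of the 29 other members and in 9.2% of all promoters. The NF-kB motif, GGGA and CC with any 4 bases between them, read likewise, was found in C3 (-69 to -60, overlapping the CTGGGAA) and Pros1 (-67 to -58), in 7 of the 29 and in 16.8% of all. Matches were thus present both in genes that rose and in genes that fell or did not pass, and a match is a description of the sequence.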

How the data were processed

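The authors ran Affymetrix Expression Console on the scanned arrays and deposited log2 values made by RMA, which subtracts background, quantile normalizes the arrays and summarises each probe set. Versions and the genome build are not given in the sources used here, and no gene coordinates of the probe sets are given. The deposited log2 values of 29215 probe sets in 6 samples (3 hCT1, 3 control) were used unchanged. The platform annotation pairs 15310 probe sets with exactly 1 symbol, 323 with several and 13582 with none. The number of arrays limits the precision.

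A linear model of the group was fitted to each probe set (R 4.3.3, limma 3.58.1, and statmod 1.5.0 where eBayes was run as robust), and its moderated 2-sided p-values, from eBayes with no trend, were adjusted over the 15310 probe sets. On simulated data of these 15310 probe sets, a log2 change of 1 was recovered in 66 of 67 cases, 0.5 in 50 of 67 and 0.25 in 11 of 66. Only these probe sets were changed there, a far smaller share than the 14.8% that passed in the data, and each kept its observed variance. Recovery depends on that share, so the rates do not give the sensitivity of the fit to the real data. The 17 alternatives changed the test, the filter on dim probe sets, the normalization, the threshold, the probe sets used, the samples left out and the block. The members and lists were chosen with earlier results of these data known. Every measured member is named. Other pathway genes are named if they passed, and A2m, Masp1, Colec10, C1rl, Cr2 and the promoter of Fgg were chosen after their values were seen. Promoters are RefSeq sequences of GRCr8.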

Additional observations from a re-analysis of the deposited data

How the results depend on the processing

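Of the 9 members that passed, Serping1, C3 and C3ar1 kept their direction and their call under all 17 alternatives, and Thbd and C1s under all 16 that tested them. The count of higher members was 8, with 7 to 8 when a sample was left out, 5 by a one-way test without moderation but with adjustment (C1r, C7, Cd46 and Pros1 lost and F10 gained), 13 by that test without adjustment, 5 at an adjusted p under 0.01 and 4 with probe sets above the 40th percentile of mean signal, which does not test C1s, C7, Cd46 and Thbd. The count of lower members was 1, with 1 to 3 when a sample was left out (3 without control replicate 3), and 2 by robust eBayes with a trend, by array weights and by that filter, C8g being the addition. The members' median log2 fold change of 0.07 was 0.0552 to 0.0816 when a sample was left out, 0.0454 after quantile normalization once more, 0.0911 after centring on the median and -0.0231 with the filter. Other pathway genes were higher in 5 cases, in 8 with array weights, in 3 by the adjusted one-way test and in 5 to 6 when a sample was left out, and lower in 3, or 2 to 3 when a sample was left out. Over all probe sets, 762 were higher and 1506 lower, 376 and 675 by the adjusted one-way test, 1483 and 2467 by the unadjusted one, 296 and 563 at an adjusted p under 0.01, and 417 to 873 and 803 to 1810 when a sample was left out. Another quantile normalization gave 917 and 1148, a share of higher calls of 44.4% in place of 33.6%. With the sample number as a replicate block, 490 were higher and 1010 lower, and all 9 members kept their call. The labels give same-numbered samples only a shared number. Their correlations of deviations from the group means were -0.0253, 0.0459 and -0.2848, so no pair was over 0.1. No sample correlated best with its own number. With 3 samples a group, these values cannot settle whether same-numbered samples shared a preparation. Where calls changed, the cause was not tested, apart from the filter and the threshold, which act by construction. Dim signal limits most members, since the arrays have no detection calls.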
